A study of Mus musculus with 8 samples.

Results

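Core genes of the perineuronal net were examined in medial prefrontal cortex (mPFC) of adult mice that had or had not gone through maternal separation (MS) as pups. The group holds 10 of the 31997 named genes on the array: the lecticans Acan, Bcan, Ncan and Vcan, the link proteins Hapln1, Hapln2 and Hapln4, the tenascins Tnr and Tnc, and the hyaluronan synthase Has2. Members were taken by gene symbol alone, and every probe that carried one of these symbols was kept, which gave 14 probes. Of these, 11 probes of 9 genes were bright enough to be tested, and Tnc was the gene left without a tested probe. None of the 11 passed the test between MS and control mice.

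The 8 animals were males of the inbred strain C3H/Hen, 4 in the control group and 4 in the MS group (Stress in the labels). MS pups were taken from the dam daily from postnatal day 2 to day 14, and the dam was exposed to unpredictable stressors meanwhile, whereas control pups stayed with an undisturbed dam. Both groups were weaned at day 21, went through operant tests for palatable food at 4 to 5 months of age and were killed after food deprivation. The comparison asks whether MS leaves a lasting difference in the mPFC, here in genes of the extracellular matrix. RNA of the dissected tissue of each mouse was labelled from 200 ng and hybridised to 1 single-colour Agilent array, with no pooling. Each mouse is named here by group and label number (control 6.2, 8.2, 8.4 and 8.5 and MS 5.3, 7.1, 7.2 and 7.6).

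Perineuronal nets are lattices of extracellular matrix that wrap the soma and proximal dendrites of certain neurons, in the cortex mostly interneurons that express parvalbumin (PV). A hyaluronan chain, made at the cell surface by hyaluronan synthases, forms the backbone. Lecticans, which are chondroitin sulphate proteoglycans, bind that chain at one end and tenascin-R at the other, and link proteins lock them onto hyaluronan. Nets mature as developmental plasticity closes, and the same proteins also occur in the diffuse matrix, around nodes of Ranvier and in glial precursors.

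A level is given throughout as the log2 of the processed spot signal after subtraction of its array's 75th percentile, so that 0 stands for the signal of a probe at that percentile. Such levels can be set side by side between animals but not between probes, since probes differ in how strongly they bind. That percentile lay at a signal of 588 (MS 7.1) to 892 (control 8.4). Between 61.6% and 68.9% of the 55681 probes were well above background on an array, without any saturated spot. Precision is limited by how many arrays there are, and the p values measure only the spread between these animals. The number before the point is 8 in 3 controls and 7 in 3 MS mice, for reasons that the labels do not state. In such bulk tissue fewer cells of a type and less RNA per cell cannot be told apart. All 10 markers of cortical pyramidal neurons were well above background on all 8 arrays. The same held for all 9 tested markers of the olfactory bulb and for 9 of 10 striatal markers. Detection alone therefore does not single out cortex. Control 8.4 stood apart from the rest, with a median correlation with the other arrays of 0.987 against at least 0.993 for each other array, and the larger moves without it are given beside the results.

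What the array reads of each gene is set by its probes of 60 bases. Both brevican probes and the 3 versican probes are shown because they are listed under different sets of RefSeq transcript variants. Those of Acan, Hapln2, Hapln4 and Tnr are shown because control mouse 8.4 stood apart in them. The sequences are written 5′ to 3′ in the sense of the transcript. The first 30 bases are printed, and all 60 for the middle versican probe, which reads without a stop in 2 frames.
Acan: acaggctggctgaagagaagcagagccctc
Bcan probe 1: caaagagtttttaggatggagtaccagcaa
Bcan probe 2: cttaagccactacttctgtgaagtattttt
Vcan probe 1: ttcatcctaatgtgtactagagcacagaaa
Vcan probe 2: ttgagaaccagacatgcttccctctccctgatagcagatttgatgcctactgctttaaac
Vcan probe 3: cggcaggctttaggttgtctatgtaaatga
Hapln2: atattgcatctatggctcagcaatatactg
Hapln4: ggaacagctatctgcaccatccatttgcat
Tnr: atattcagactatctgaaggaagcagggat

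Positions are those of the array files, on build mm9. The Acan probe lies at chr7:86259741-86259801 on the plus strand. Bcan probe 1, built on variant 1, lies at chr3:87791457-87791516 on the minus strand, and Bcan probe 2, built on variant 2, at chr3:87796466-87796525 on the same strand. Vcan probe 1 lies at chr13:89795080-89795139 on the minus strand and is listed under 4 RefSeq variants, which do not include variant 5. Vcan probe 2 (chr13:89851810-89851869) is also listed under 4 variants, variant 5 among them, whereas Vcan probe 3 (chr13:89850072-89850131) is listed under variant 5 alone. The Hapln2 probe lies at chr3:87826236-87826295 on the minus strand, that of Hapln4 at chr8:72613883-72613942 on the plus strand and that of Tnr at chr1:161854449-161854508 on the plus strand. Whether a probe falls in the coding or an untranslated part of its exon was not determined here. In the RefSeq gene table, used for names and gene order alone, lecticans and link proteins lie side by side. Bcan neighbours Hapln2 on chromosome 3, Ncan neighbours Hapln4 on chromosome 8 and Vcan neighbours Hapln1 on chromosome 13, with 0 genes between the members of each pair.

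No net gene passed the test, nor did any other gene on the array. With limma and Benjamini-Hochberg adjustment at a false discovery rate of 0.05, 0 of the 11 member probes were called, against 0 of all 34098 tested probes (0%). At an unadjusted p under 0.05 the count was again 0 of 11, with 2.39% of all tested probes below that value. Groups did not overlap for 0 of 11 member probes and for 1.43% of all tested probes. The estimate was higher in MS for 3 member probes and lower for 8, with a median difference of -0.12 against 0.01 for all tested probes. Of all 22100 genes tested, taken at the brightest probe, 11946 were higher and 10154 lower. Both the split and the median of the members rest in part on control 8.4. Without that mouse the middle estimate of the 11 was -0.01 (Bcan probe 1), and Hapln2 became 0.03. In 10 of 11 member probes the 95% interval of the difference stayed inside a 2-fold change upward or downward, as it did for 95.8% of all tested probes, and the exception was Acan. All 11 intervals included 0, and the adjusted p by limma was at least 0.999556 for every member probe.

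**Figure D1:**
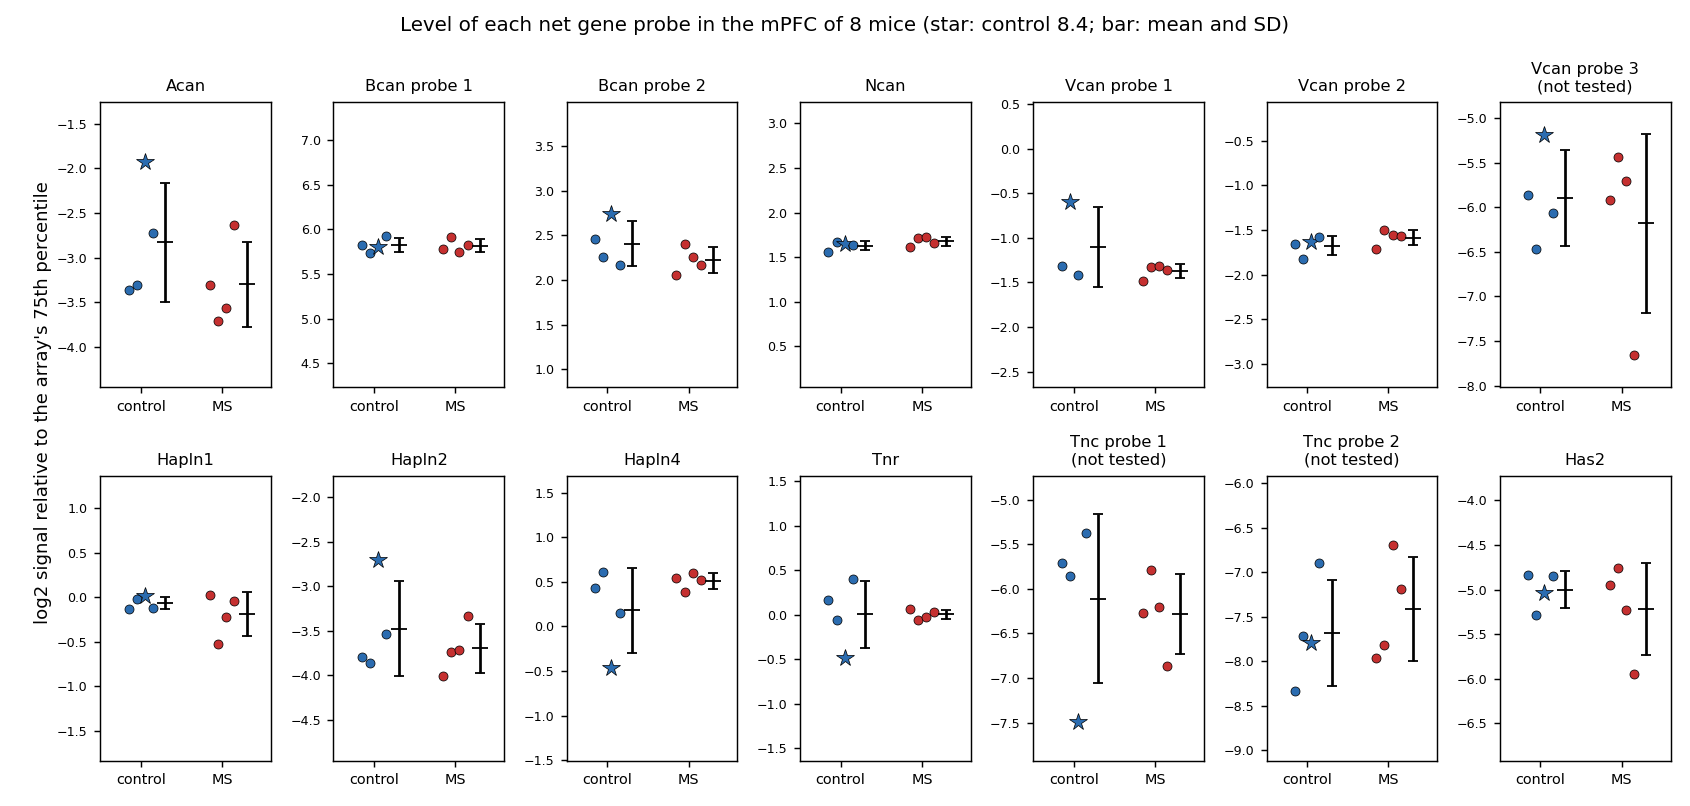
Level of the 14 net gene probes in the 8 mice, as log2 signal relative to the array's 75th percentile, with 1 panel for each probe and the same span of the vertical axis in all. Blue points are control mice and red points MS mice, the star is control 8.4, and bars give the mean and SD of a group. Control 8.4 is the highest mouse for Acan, Bcan probe 2, Vcan probes 1 and 3 and Hapln2 and the lowest for Hapln4, Tnr and Tnc probe 1, while Bcan probe 1, Ncan and Vcan probe 2 hardly vary. Control 6.2 has no point for Vcan probe 1, where its spot was marked as an outlier.

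Aggrecan, encoded by Acan, is the lectican most closely tied to nets around PV interneurons, and it was the member with the widest spread among those tested. Its level was -3.36, -3.30, -1.93 and -2.73 in controls 6.2, 8.2, 8.4 and 8.5, and -3.30, -3.71, -3.57 and -2.63 in MS 5.3, 7.1, 7.2 and 7.6. The groups overlapped, with control 8.4 highest by a wide margin and MS 7.6 second. The mean was -2.83 ± 0.67 (SD, n = 4) in controls and -3.30 ± 0.48 (SD, n = 4) in MS mice, a difference of -0.47 with an SE of 0.35 (95% interval -1.26 to 0.31). As a ratio of MS to control the estimate was 0.721, with an interval from 0.418 to 1.24, which reaches from a level more than 2-fold lower to a slightly higher one. By limma the unadjusted p was 0.206. Without control 8.4 the difference was -0.17. The SD over the 8 mice, 0.59, lay at percentile 97.2 of all tested probes.

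Brevican, encoded by Bcan, is an abundant lectican of the adult brain that is made in a secreted form and a shorter form held at the membrane. Probe 1, on variant 1, read 5.83, 5.74, 5.81 and 5.93 in the 4 controls and 5.78, 5.92, 5.75 and 5.83 in the 4 MS mice, in the same order of animals. All 8 values lay within 0.19 of each other, and the difference was -0.01 with a 95% interval from -0.18 to 0.17. Probe 2, on variant 2, read 2.46, 2.26, 2.74 and 2.17 in controls, with 2.06, 2.41, 2.26 and 2.17 in the MS mice. Control 8.4 was again the highest, the difference was -0.18 (SE 0.14, 95% interval -0.49 to 0.13), and it was -0.07 without that mouse. The gap between both probes within an array, which would move if one variant changed relative to the other, was 3.42 ± 0.28 (SD, n = 4) in controls and 3.59 ± 0.11 (SD, n = 4) in MS mice. An exact two-sided permutation test over 70 labellings gave p = 0.314 for that difference, where 0.0286 is the smallest p the design allows. The gap was narrowest in control 8.4, at 3.07, against 3.36 to 3.76 in the other mice.

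Neurocan, encoded by Ncan, is a lectican of the diffuse matrix and of nets, most abundant during development. Its level was among the steadiest on the array, with 1.56, 1.67, 1.65 and 1.64 in controls, with 1.62, 1.71, 1.73 and 1.66 in the MS mice. The difference was 0.05 with a 95% interval from -0.11 to 0.21, and the SD over the 8 mice lay at percentile 1.18 of all tested probes. Control 8.4 sat in the middle of this range.

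Versican, encoded by Vcan, is made as splice variants that differ in the stretch carrying the chondroitin sulphate chains, and in the adult brain it is found on nets, at nodes of Ranvier and in oligodendrocyte precursors. Probe 1 read -1.31, -0.59 and -1.42 in controls 8.2, 8.4 and 8.5, and -1.49, -1.33, -1.32 and -1.37 in MS mice. The fourth control value is missing because the scanner software marked the spot of control 6.2 as an outlier, at a level of 3.64. With 3 controls against 4 MS mice the difference was -0.27 (SE 0.19, 95% interval -0.71 to 0.18), and without control 8.4 it was -0.01. When the marked spot was kept, the difference became -1.45, still without a call, so that 1 spot decided the size of this value. Probe 2 read -1.66, -1.83, -1.64 and -1.58 in controls, with -1.71, -1.50, -1.56 and -1.57 in the MS mice. Here control 8.4 did not stand out, and the difference was 0.09 with a 95% interval from -0.10 to 0.28. The gap between probes 1 and 2 was 1.05 in control 8.4 and 0.16 to 0.51 in the other 6 mice with both values, and the test did not separate the groups in it (exact two-sided permutation test over 35 labellings, p = 0.143, smallest possible 0.0286).

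Vcan probe 3, on variant 5 alone, was well above background on 2 control and 2 MS arrays and was not tested. It read -5.86, -6.47, -5.18 and -6.06 in controls, with -5.92, -5.44, -5.71 and -7.66 in the MS mice. The groups overlapped, with control 8.4 at the top and MS 7.6 at the bottom of the range.

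Link proteins join lecticans to hyaluronan. Hapln1, the link protein of cartilage and of cortical nets, read -0.13, -0.02, 0.01 and -0.12 in controls, with 0.03, -0.53, -0.22 and -0.04 in the MS mice. The controls lay close together, whereas MS 7.1 was the lowest mouse. The difference was -0.12 (SE 0.12, 95% interval -0.41 to 0.16), and it stayed at -0.12 within the first and -0.13 within the second of the 2 slide rows, each of which held 2 arrays of each group. Without MS 7.1 it was -0.01.

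Hapln2, the link protein found at nodes of Ranvier of myelinated axons, read -3.80, -3.86, -2.71 and -3.54 in controls, with -4.01, -3.74, -3.72 and -3.33 in the MS mice. Control 8.4 was highest, then came MS 7.6 and control 8.5, the same 3 animals in the same order as for Acan. The difference was -0.22 (SE 0.26, 95% interval -0.80 to 0.36), and without control 8.4 it was 0.03.

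Hapln4, a link protein of nets that binds brevican, had a higher mean in MS mice. It read 0.43, 0.61, -0.47 and 0.14 in controls, with 0.54, 0.38, 0.60 and 0.52 in the MS mice. Control 8.4 was the lowest mouse, followed by control 8.5, and the 4 MS mice lay within the range of the controls. The mean was 0.18 ± 0.47 (SD, n = 4) in controls and 0.51 ± 0.09 (SD, n = 4) in MS mice, so the difference of 0.33 (SE 0.21, 95% interval -0.14 to 0.81) was the largest upward estimate in the group. Its unadjusted p by limma was 0.148, the smallest among the member probes. Without control 8.4 the difference was 0.12, and without control 8.4, control 8.5 and MS 7.6 together it was -0.01.

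**Figure D2:**
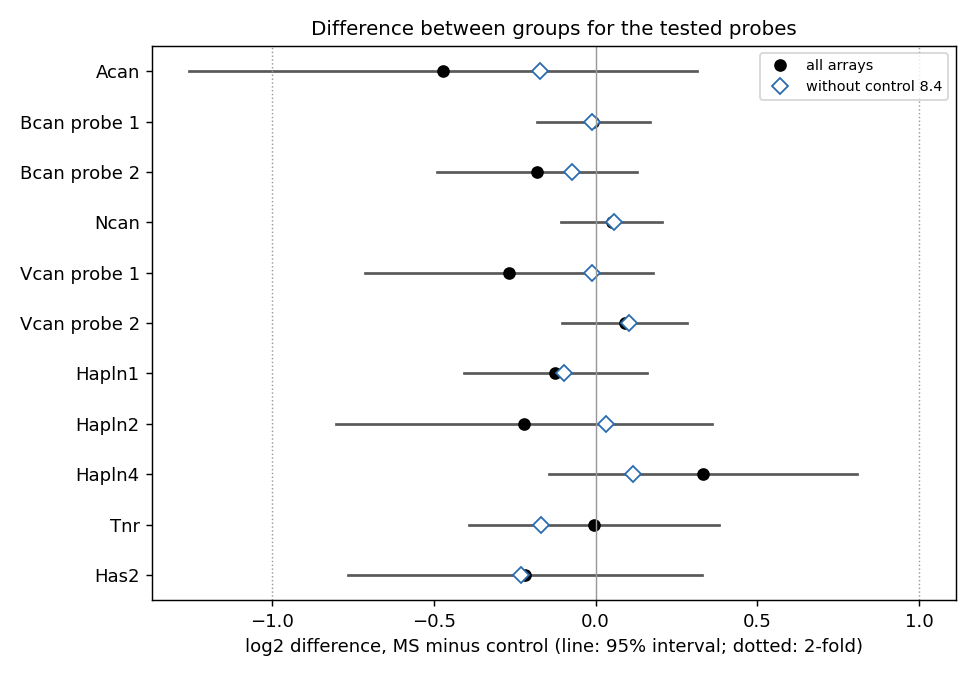
Difference between MS and control mice for the 11 tested probes on the log2 scale, with the 95% interval as a line, the estimate from all arrays as a black point and the estimate without control 8.4 as an open diamond. Dotted lines mark a 2-fold change, which only the Acan interval crosses. All intervals include 0, and leaving out control 8.4 moves Acan from -0.47 to -0.17 and Hapln4 from 0.33 to 0.12.

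Tenascin-R, encoded by Tnr, crosslinks the free ends of the lecticans and is made by oligodendrocytes and some interneurons. It read 0.17, -0.06, -0.48 and 0.40 in controls, with 0.07, -0.06, -0.03 and 0.03 in the MS mice. The controls held both the highest and the lowest mouse, with an SD of 0.38 against 0.05 in MS mice, while the means were nearly equal and the difference was -0.00 (95% interval -0.39 to 0.38). That near-zero value was a balance of opposite parts, being -0.28 within the first slide row and 0.27 within the second. Without control 8.4 the difference was -0.17 and the SD of the controls 0.23, and without control 8.5 the difference was 0.13. The difference in spread was not tested.

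Tenascin-C, encoded by Tnc, is a protein of the developing brain and of reactive astrocytes. Probe 1 (chr4:63643728-63643787, minus strand) was well above background in controls 6.2 and 8.5 and on no MS array, so it was not tested. Its values ran from -7.50 to -5.37 in controls and from -6.87 to -5.79 in MS mice, and since the control mean lay below the detection floor of the MS arrays, no bound on a fold can be given. Probe 2, whose 60 bases span 764 bases of genome and hence an intron, was well above background on 0 of 8 arrays.

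Has2, one of the enzymes that spin out the hyaluronan chain, was dim but well above background on all arrays except MS 7.6. It read -4.84, -5.28, -5.04 and -4.85 in controls, with -4.95, -4.76, -5.23 and -5.94 in the MS mice. The difference was -0.22 (SE 0.24, 95% interval -0.76 to 0.33), and it was 0.02 without MS 7.6. Control 8.4 was in the middle of the range.

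Control 8.4 held the highest or lowest value in 6 of the 11 tested member probes, which is 54.5%, beside 51.0% of all 34098 tested probes. Its deviation from the mean of the other 7 mice was 1.30 for Acan, 1.003 for Hapln2, 0.78 for Vcan probe 1 and 0.48 for Bcan probe 2, against -0.93 for Hapln4 and -0.56 for Tnr. For Bcan probe 1, Ncan and Vcan probe 2 it was between -0.01 and -0.00. For Hapln1, the neighbour of Vcan, it was 0.16. The table that the authors normalised gave deviations of 1.04 for Acan, 0.72 for Hapln2, 0.60 for Bcan probe 2, -0.78 for Hapln4 and -0.58 for Tnr. In that table the deviation of Bcan probe 1 was 0.20, and that of Vcan probe 1, where the value of control 6.2 was not left out, was -0.01.

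Markers of neighbouring regions and of other cell types moved in the same animal. A score is the mean over a list's tested genes of the level minus its mean over the 8 arrays. The olfactory bulb list, which includes genes of the anterior olfactory area, had 9 of 10 genes tested. It scored 2.29 in control 8.4, then 1.20 in MS 7.6, then 0.65 in control 8.5, and from -0.9999 to -0.52 in the others. These are the 3 animals with the highest Acan and Hapln2, in the same order. The score of the 10 striatal projection neuron genes was 1.30 in control 8.4 and -0.32 to -0.05 in the other 7 mice. Of the cell types known to make or carry these proteins, mature oligodendrocytes (12 genes) scored 0.36 in control 8.4 and -0.18 to 0.10 in the others. The PV interneuron list (11 of 12 genes tested) scored 0.23 against -0.09 to 0.02, but its members went different ways in control 8.4. Pvalb, which encodes parvalbumin itself, was lowest there at 2.61 against 3.22 to 3.57, as was the potassium channel gene Kcns3 at -0.54 against -0.33 to 0.18. Gad1 (5.19 against 3.65 to 4.44), Gad2 (3.92 against 2.99 to 3.42) and Slc32a1 (5.75 against 5.09 to 5.42), which GABA neurons in general use, were highest there, as was Tac1 (3.49 against 1.68 to 2.22), which is also in the striatal list. Kcnc1 (2.69 against 2.45 to 2.61) and Erbb4 (2.26 against 1.69 to 2.20) were also highest there, by narrower margins. Kcnc2, Lhx6 and Nek7 were neither highest nor lowest in that mouse. Oligodendrocyte precursors (10 genes) scored 0.18 against -0.06 to -0.00, whereas astrocytes (12 genes, -0.08 to 0.05) and cortical pyramidal neurons (10 genes, -0.08 to 0.11) did not set control 8.4 apart. The part of these markers in the values of the net genes was not tested.

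**Figure D3:**
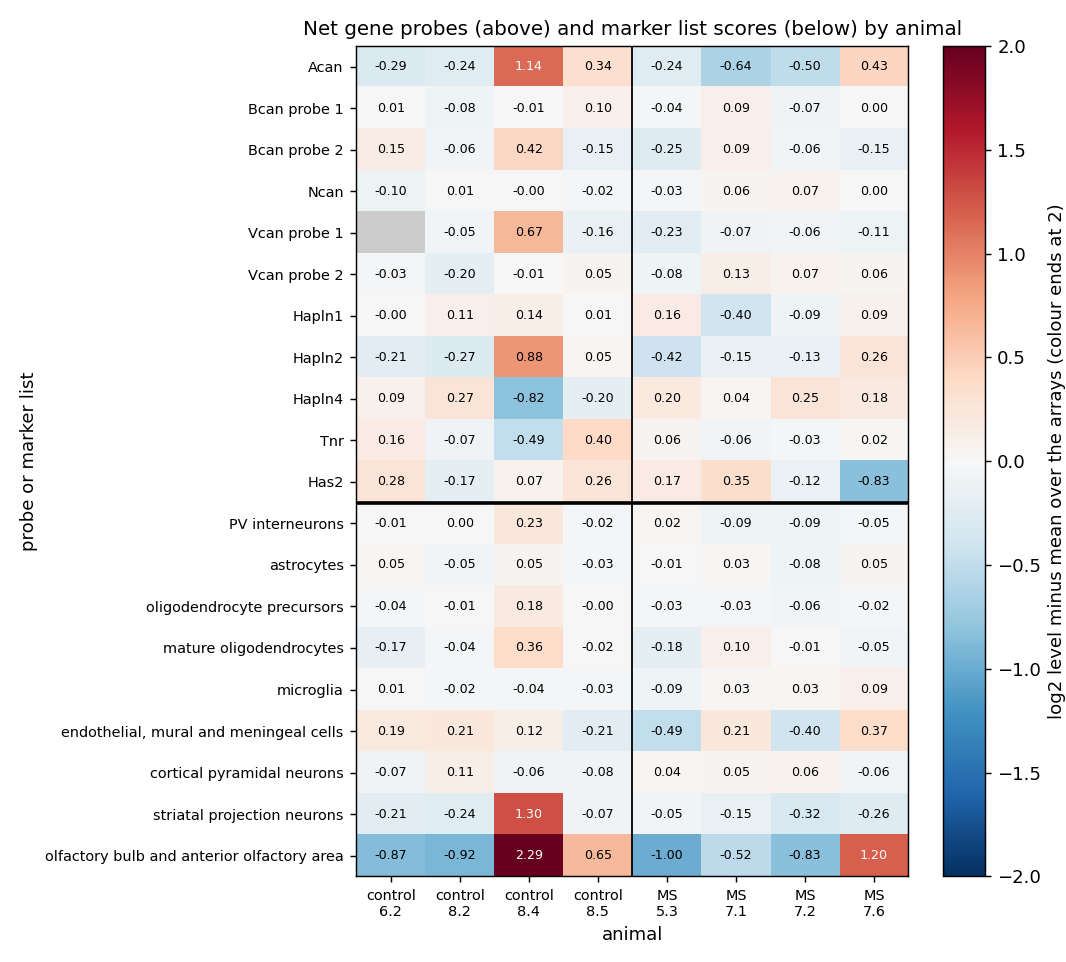
Level of each of the 11 tested probes minus its mean over the arrays (above the line) and the scores of 9 marker lists (below), by animal, on the log2 scale, with red for higher and blue for lower. Control 8.4 is high for Acan and Hapln2 and low for Hapln4 in the column where the striatal and olfactory bulb scores reach 1.30 and 2.29. The grey cell is the marked Vcan spot of control 6.2.

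Among 22099 other named genes, the one whose pattern over the 8 arrays was nearest to that of Acan was Chrnb4, a nicotinic acetylcholine receptor subunit, with a root mean square difference of 0.07 between the centred levels, followed by Ush1g at 0.10. For Hapln2 the nearest were Hs3st3a1, a heparan sulphate sulphotransferase, Galnt10, a glycosyltransferase that starts O-linked chains, and the transcription factor gene Stat5a, each at 0.09. All 5 of these genes were likewise highest in control 8.4, which follows from choosing them by that pattern. Has2, whose range was set by MS 7.6, lay nearest to AY512950 at 0.13 and to Cilp2 at 0.14.

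The genes that build, bind and cut the net matrix gave no call either. Of 74 such genes in 5 lists, 73 were on the array and 67 were tested, with 0 past the adjusted threshold and 0 at an unadjusted p under 0.05, beside 1.90% of all 22100 genes tested. The estimate was higher in MS for 27 and lower for 40, with a median difference of -0.04. Among all 22100 genes it was higher for 11946 and lower for 10154, with a median of 0.01. The split of the matrix genes without control 8.4 was not counted. Of 11 other hyaluronan genes tested, 2 were higher and 9 lower, and the link protein gene Hapln3, which neighbours Acan, differed by -0.08. Of 18 other proteoglycans, receptors and net binding proteins, 14 were higher and 4 lower, with 0.29 for Smoc2, a matricellular protein, and -0.18 for Ptprz1, a phosphatase and receptor that carries chondroitin sulphate itself. Without control 8.4 Smoc2 differed by 0.07 and Ptprz1 by -0.12. Of 21 chondroitin sulphate synthesis genes, 7 were higher and 14 lower. Xylt1, which starts the chain, differed by 0.47, and Ust, a sulphotransferase, by -0.57, which became -0.13 without control 8.4.

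The estimate farthest from 0 among these genes was that of a matrix protease. Of 10 proteases tested, 3 were higher and 7 lower. Adamts5, an aggrecanase, had a mean of -4.83 ± 0.78 (SD, n = 4) in controls and -5.79 ± 0.75 (SD, n = 4) in MS mice, a difference of -0.95 with a 95% interval from -1.98 to 0.07 and an unadjusted p by limma of 0.0652. Adamts9, which also cleaves lecticans, differed by -0.56 (unadjusted p by limma 0.0684). Without control 8.4 these were -0.68 and -0.27. The MS mean of Adamts5 lay near the detection limit. Member probes at -5.79 (Tnc probe 1 in MS 7.1) and -5.94 (Has2 in MS 7.6) were not well above background, whereas Vcan probe 3 at -5.86 in control 6.2 was. Low signal therefore limits the Adamts5 estimate. Of 7 protease inhibitors, 1 was higher and 6 were lower, with -0.19 for Reck, a membrane-anchored inhibitor of metalloproteinases.

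**Figure D4:**
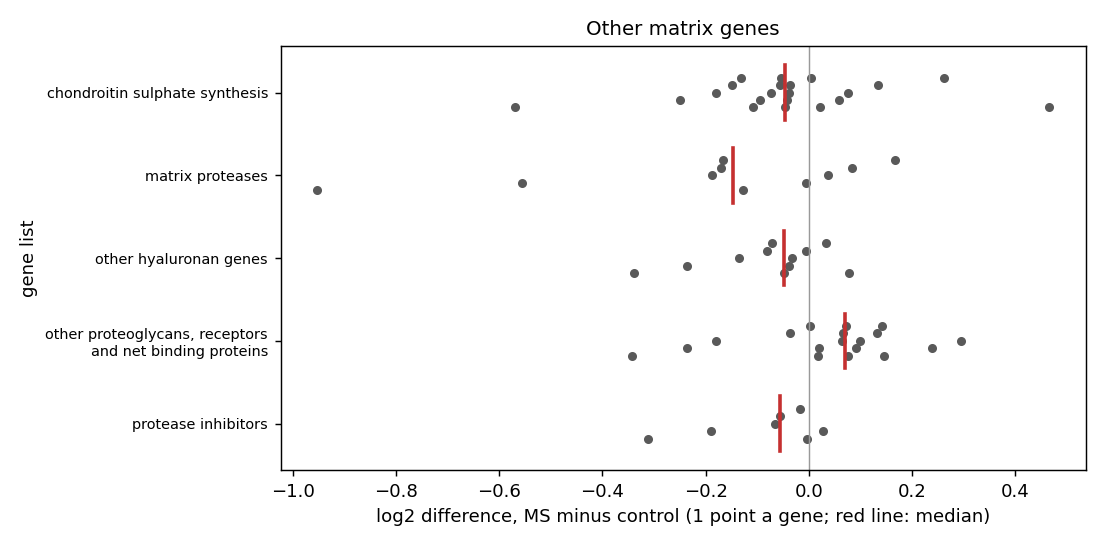
Difference between MS and control mice on the log2 scale for the tested genes of the 5 lists of other matrix genes, with 1 point a gene at its brightest tested probe and the list median as a red line. The medians run from -0.15 for the proteases to 0.07 for the other proteoglycans, receptors and binding proteins. The point farthest to the left is Adamts5 at -0.95, from a dim probe.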

How the data were processed

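The mPFC of 8 male mice was analysed, with 1 array per mouse and groups taken from the labels. The authors extracted the deposited spot intensity values with Agilent Feature Extraction 10.10.1.1, which subtracted background but did not normalise between arrays. The array design named in the file headers, which differs from that of the study's methods, was used. A log2 table of values normalised by the authors was also deposited and served as an alternative. Column by column it correlated at 0.9999 or more with its own array, and its medians were 8.532 or 8.533. Of 62976 spots, 3671 control spots were left out, as were those marked as outliers (0.25% to 0.30% per array).

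Log2 processed signal minus the array's 75th percentile was used, and probes had to be well above background in every mouse of either group (4 arrays) to be tested (34098 were and 21583 were not). Differences were tested two-sided with limma 3.58.1 (lmFit, which the study's methods name, and eBayes, with no covariate) in R 4.3.3, with Benjamini-Hochberg adjustment over all tested probes. Block and weight fits needed statmod 1.5.0, tables were read with data.table (version 1.17.8), and matplotlib 3.10.9 under Python 3.11.15 drew the figures. The fit was tested on simulated data. For gene lists the brightest tested probe of a gene was used. The text names all members, up to 2 genes in each direction for each matrix list and the nearest patterns of the 3 most variable genes. The matrix genes named were among the 2 with the smallest unadjusted p by limma in their direction, and not every such gene is named. Hapln3 is named besides, as the neighbour of Acan. Symbols came from RefSeq tables (GRCm38.p6) through the accession for 27235 probes and the name for 4146. Members and lists were chosen with earlier results of these data known. Alternatives were the normalisation, background correction, filter, outlier spots, slide row, the label's number before the point as a block, array weights, each mouse left out and the mean over a gene's probes.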

Additional observations from a re-analysis of the deposited data

How the results depend on the processing

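The count of called probes was 0, for the members and for all tested probes, in the main comparison and in all 18 alternatives with a test, 1 of which (leaving out control 8.4, control 8.5 and MS 7.6, the mice with a positive olfactory bulb score) was chosen after seeing the data. Acan (-0.70 to -0.17), Ncan (0.03 to 0.08) and Hapln1 (-0.20 to -0.01) kept their sign in all 20 settings, single slide rows included. Values below are log2 differences of a gene's brightest tested probe. With normexp background correction Tnr was 0.0131 and Has2 0.0489, and in the authors' table Tnr was 0.024. With the number before the point of the label as a random block Tnr was 0.00793. With 1 mouse left out at a time, Bcan ran from -0.0392 to 0.027, Hapln2 from -0.349 to 0.033, Tnr from -0.167 to 0.128 and Has2 from -0.372 to 0.023. Without the 3 mice Bcan was 0.033, Hapln2 0.00553, Hapln4 -0.0124 and Has2 0.0803. Vcan ran from -1.45, with the marked spot of control 6.2 kept, to 0.01 within the first slide row, and in the authors' table it was -1.44. The cause of the other changes was not tested. No paired analysis was possible because the groups share no replicate number. Low signal limits Tnc, Has2 and Vcan probe 3, which were not well above background on every array. It also limits Adamts5, whose MS mean lay near the detection limit.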
